A study of Bursaphelenchus xylophilus with 12 samples.

Results

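This account covers 232 genes of the pine wood nematode Bursaphelenchus xylophilus whose transcripts fell from 12 h to 24 h in worms kept in adjuvant. In worms kept in emamectin benzoate they changed by less than 0.5 log2 units, with a median of -0.23. The genes were chosen from the measured values, out of 18036 listed IDs. The choice was made among the 10333 IDs that begin with BXY and had a mean FPKM of 5 to under 800 over all 12 libraries. FPKM counts fragments relative to gene length and to library size. Levels were compared as group means of log2(FPKM + 1). A gene was kept when EC24 lay at least 0.8 log2 units below EC12, EB24 lay within 0.5 of EB12, and EB24 lay at least 0.7 above EC24. The spread of the 12 h replicates, taken as the root of the mean variance of both 12 h groups, also had to be under 0.6.

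Adult worms of strain NB-6, reared on the grey mould fungus Botrytis cinerea, were immersed at 25 °C in emamectin benzoate (EB) at 0.1 mg/L for 12 h or 24 h, giving the groups EB12 and EB24. The groups EC12 and EC24 spent the same times in the adjuvant alone. The treatment text names that adjuvant as octylphenol polyoxyethylene-10, a surfactant, with n-butyl alcohol, a solvent. It abbreviates these groups as ON, whereas the library titles say EC, and EC was read as the adjuvant because no other treatment is described. Every group had 3 libraries, and every library came from 200 pooled adults, so that no value belongs to a single worm, sex or tissue. No untreated worms are among these samples, and the EB groups received the pesticide in a formulation whose adjuvant the EC groups share.

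B. xylophilus is the agent of pine wilt disease. It feeds on fungi and on the living cells of pines and is carried between trees by longhorn beetles. Emamectin benzoate, an avermectin injected into trunks to protect pines, opens glutamate-gated chloride channels of nerve and muscle in invertebrates, which silences those cells and leads to paralysis. Transcript levels in whole worms move with time in a new medium as well as with an agent, and the adjuvant series gives the course over time against which the EB series is read.

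The table pairs no ID with a gene name or description, so the roles of these genes were not analysed and the adult stage was not checked against marker genes. Because whole worms were pooled, fewer cells that express a gene and less of its RNA per cell cannot be told apart. Fragment counts and read depth are unknown, so no counting error is given. Titles of the 12 h libraries hold a group number, a different one per agent, that is missing at 24 h. Whether it marks a batch is unknown, and a batch that followed time could not be separated from time.

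The fall in the adjuvant libraries took these transcripts to at most 56.1% of their EC12 level, the median being 43.7%. In the EB libraries the median gene kept 84.3% of its EB12 level at 24 h, with a range of 67.3% to 133%. The summed FPKM of the 232 genes was 23704, 31952 and 33171 in the EC12 libraries and 26850, 32179 and 29970 in EB12. It was 12116, 11872 and 11787 in EC24, below every other library, and 25332, 25337 and 25440 in EB24. As a share of the FPKM sum, the genes together held 3.56% ± 0.60 (SD, n = 3) in EC12 and 3.43% ± 0.33 in EB12. At 24 h they held 1.27% ± 0.03 of the sum in EC24, and 2.75% ± 0.03 in EB24. The EC24 libraries were lowest on both scales. The EB24 sums lay inside the range of EC12 and below EB12, whereas as a share of the FPKM sum each EB24 library, at 2.73% to 2.78%, lay below the lowest EC12 library, at 2.88%. These values chose the genes and are therefore a description.

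**Figure D1:**
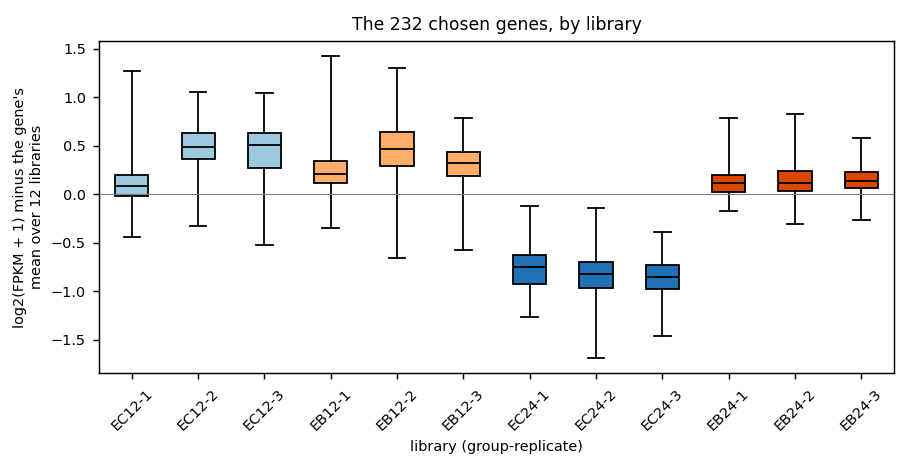
Level of the 232 genes in each of the 12 libraries, as log2(FPKM + 1) minus the mean of the same gene over all libraries. Boxes span the quartiles, the line is the median and the whiskers reach the lowest and highest gene; the 3 EC24 boxes lie below 0 and the boxes of EB24 lie just above it, with less spread than at 12 h.

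Each of the differences that the choice used was also fitted across all 13768 IDs that reached an FPKM of 1 in 3 or more libraries, and all 232 genes were among them. The fit was limma, with 1 spread per ID shared by all 4 groups, and Benjamini-Hochberg adjusted p under 0.05 as the call. From EC12 to EC24, 232 of the 232 genes were called lower, against 25.9% of all tested IDs, with a median log2 difference of -1.13 against 0.04 over all tested IDs. Between EC24 and EB24, 228 genes were called higher with EB, against 14.5% of tested IDs, and the medians were 0.91 and 0.14. The genes that missed this call were BXY_0437900, BXY_0445900, BXY_0662700 and BXY_1694400 (limma adjusted p = 0.0874, 0.0612, 0.0642 and 0.106), named after their values were seen. The change over time differed between the agents for 152 genes (limma interaction), against 6.46% of tested IDs with that sign. Since the choice rests on these same differences, nothing is read from the calls. The labels do not say whether the replicates were separate cultures, so that each p sets a difference against a spread that could be technical alone.

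The choice allowed a change of up to 0.5 in either direction in EB, which bounds the values that follow. The median change from EB12 to EB24 was -0.23 log2 units, while that of all tested IDs was 0.15. The change was below -0.25 in 104 of the 232 genes, between -0.25 and 0 in 94 and above 0 in 34. limma called 29 of the genes (12.5%) lower in EB24 than in EB12, a share near the 13.1% of all tested IDs, and 1 gene higher, against 30.3%. That higher gene was BXY_0246700. In 94 genes all 3 EB24 libraries lay below all 3 EB12 libraries, against 22.1% of the IDs in the level range, and in 6 genes all lay above, against 36.1%. Rescaling the libraries by their median ratio raised the count of genes called lower to 87 (37.5%), against 21.2% of all tested IDs, and quantile normalization raised it to 76 (32.8%), against 21.8%.

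That count of 29 also moved with the libraries fitted. Because limma shared 1 spread per ID over all groups, a library left out changed the spread used for every difference. The EC libraries are no part of the EB change and reach its calls through that spread and the set of tested IDs. The count rose to 57 when EC12 replicate 1 was left out and to 53 when EB12 replicate 1 was. It was 18 without EC24 replicate 2 or 3, and 11 without EB12 replicate 2 or 3. It was 4 without EB24 replicate 1 or 2, and 2 without EB24 replicate 3. Over all tested IDs the share called lower moved less in these fits, from 8.56% without EB24 replicate 2 to 14.5% without EC12 replicate 1. The interaction count of 152 was 55 after median ratio scaling, 90 without EB12 replicate 3, 97, 50 and 46 without EC24 replicates 1, 2 and 3, and 56, 51 and 44 without EB24 replicates 1, 2 and 3. The share of all tested IDs called moved as well, to 1.49% after median ratio scaling, 2.31% without EB12 replicate 3, 0.898% to 2.17% without an EC24 library and 0.848% to 1.15% without an EB24 library.

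The 232 genes were not set apart from their neighbours. Of the 10333 IDs in the level range, 9310 met the limit on the 12 h spread, 1392 of those fell by at least 0.8 in EC, and 406 of those stood at least 0.7 higher in EB24 than in EC24. Among the 406, 170 fell by 0.5 or more in EB as well, 4 rose by 0.5 or more, and 232 lay between. In steps of 0.1 log2 units of the EB change, 37 IDs lay from -0.6 to -0.5, outside the choice, and 39 lay from -0.5 to -0.4, inside it. A further 45 lay from -0.4 to -0.3 and 42 from -0.3 to -0.2. The counts showed no gap at the limit of -0.5. With the limit at 24 h set aside, 640 IDs fell by at least 0.8 in EC and changed by less than 0.5 in EB. Of those, 408 missed the choice because EB24 stood less than 0.7 above EC24.

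**Figure D2:**
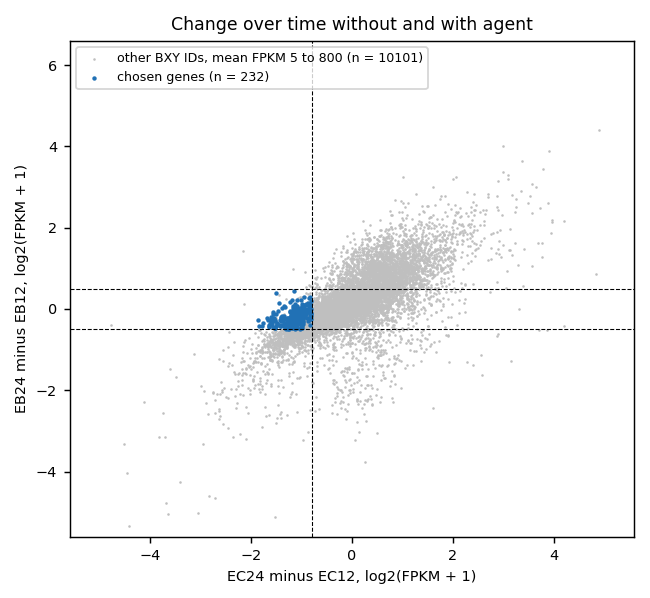
Change from 12 h to 24 h in adjuvant (x axis) and in EB (y axis) for 10333 BXY IDs with a mean FPKM of 5 to under 800, both as differences of mean log2(FPKM + 1). Dashed lines mark -0.8 on the x axis and -0.5 and 0.5 on the y axis. The 232 chosen genes (blue) lie at the left among other IDs of a continuous cloud rather than as a separate group. The limits on the 12 h spread and on both plotted changes were met by 640 IDs, and the difference at 24 h is on neither axis.

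The genes nearest to each limit lay close to it. On the EC change, BXY_0451800 was just inside at -0.81 and BXY_1590300 just outside at -0.80 (-0.798). On the EB change, BXY_1114100 was inside at -0.49 and BXY_1148900 outside at -0.50 (-0.504), while on the upper side BXY_0246700 was inside at 0.44 and BXY_0388100 outside at 0.55. On the difference at 24 h, BXY_1400200 was inside at 0.701 and BXY_0156700 outside at 0.699. On the 12 h spread, BXY_1069700 stood at 0.588 and BXY_0768000 at 0.687. On the mean FPKM, BXY_0897700 stood at 5.25 and BXY_0655000 at 4.84, and at the upper end BXY_0323200 at 794 and BXY_0804700 at 881.

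The steepest falls in the adjuvant were those of 3 genes of moderate to high level. BXY_1524300 stood at 225, 301 and 387 FPKM in EC12, at 242, 244 and 263 in EB12, at 79.2, 80.6 and 81.0 in EC24, and at 210, 199 and 206 in EB24. The EC24 libraries lay far below all others, and the EB24 libraries lay below both 12 h groups by a small step. Its log2 difference was -1.87 ± 0.15 (SE) over time in EC and 1.34 ± 0.15 between the agents at 24 h. This SE and those below come from the spread that limma shared over all groups. It is therefore the same for both differences of a gene and is not the spread of the 24 h replicates alone.

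BXY_0117200 stood at 242, 370 and 407 FPKM in EC12, 251, 347 and 307 in EB12, 99.4, 88.0 and 88.7 in EC24, and 227, 219 and 223 in EB24. All EB24 libraries were below all EB12 libraries here, but more than 100 FPKM above any EC24 library. BXY_0640900 had the same order, with 348, 495 and 550 FPKM in EC12, 400, 550 and 459 in EB12, 138, 129 and 130 in EC24, and 341, 341 and 353 in EB24. Their log2 differences over time in EC were -1.84 and -1.78, and in EB -0.42 and -0.43.

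A different order was seen among the 3 genes with the widest gap between the agents at 24 h. BXY_1425400 stood at 309, 492 and 535 FPKM in EC12, 447, 694 and 501 in EB12, 212, 208 and 224 in EC24, and 614, 650 and 603 in EB24. Its EB24 level was above all EC12 libraries, and within the range of EB12. The log2 difference at 24 h was 1.53 ± 0.20 (SE).

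BXY_0451800 stood at 14.0, 16.3 and 22.6 FPKM in EC12 and at 25.7, 30.2 and 30.1 in EB12, without overlap. In EC24 it stood at 9.63, 8.99 and 9.72, and in EB24 at 27.2, 29.9 and 29.2. The EB libraries of this gene were alike at both times, and the EC libraries were lower at both times. Its log2 difference between the agents was 0.69 at 12 h and 1.51 ± 0.16 (SE) at 24 h, so that its choice does not rest on equal levels at 12 h.

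BXY_0045300, at the low end, had the widest gap of all chosen genes at 24 h, 1.64 ± 0.37 (SE) log2 units. It stood at 7.76, 7.41 and 9.57 FPKM in EC12, 22.3, 13.03 and 7.24 in EB12, 5.30, 1.69 and 2.16 in EC24, and 9.69, 13.3 and 9.62 in EB24. EC24 replicate 1 lay well above its 2 fellow replicates, and without it the log2 difference between the agents at 24 h was 2.01.

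The 3 most abundant genes fell in the same manner. BXY_0323200 stood at 662, 1015 and 1130 FPKM in EC12, 859, 1255 and 1172 in EB12, 365, 322 and 335 in EC24, and 806, 792 and 818 in EB24. BXY_0805500 stood at 660, 944 and 1112 FPKM in EC12, 1089, 947 and 1229 in EB12, 298, 323 and 329 in EC24, and 851, 849 and 868 in EB24. BXY_0317600 stood at 766, 951 and 1164 FPKM in EC12, 663, 1053 and 883 in EB12, 351, 351 and 331 in EC24, and 655, 648 and 631 in EB24. In each of them EC12 replicate 1 was the lowest EC12 library, and all EB24 libraries lay below all EB12 libraries. The EB24 values lay within the EC12 range for BXY_0323200 and BXY_0805500 and below it for BXY_0317600.

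**Figure D3:**
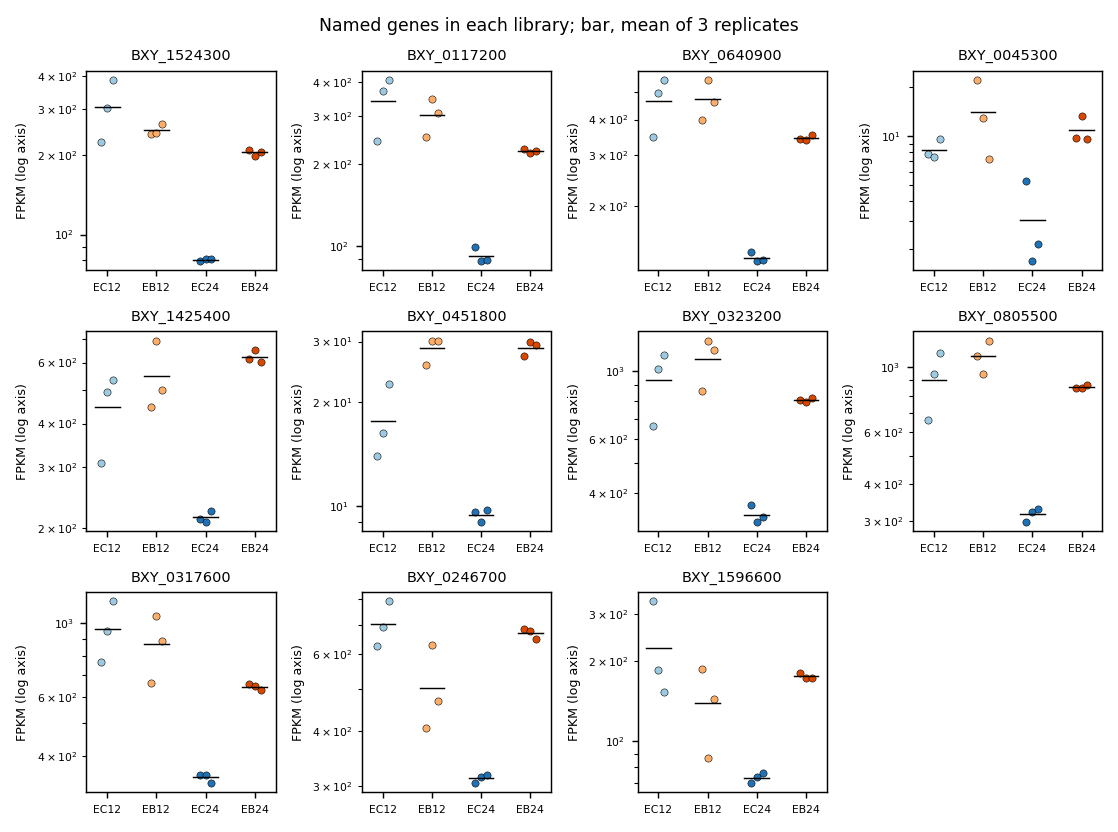
FPKM of 11 named genes on a log axis in each library, grouped by agent and time, with the mean of 3 replicates as a bar. The EC24 points lie lowest in each panel and close together except for BXY_0045300, and the 12 h points spread more widely than the EB24 points.

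At 12 h the agents stood close together for most of these genes. EB12 minus EC12 had a median of -0.02 log2 units, was within 0.5 in 228 genes and within 0.2 in 188. The level range was close as well, with a median of -0.05 and quartiles of -0.20 and 0.10, against quartiles of -0.12 and 0.11 here. limma called 0 of the 232 genes higher in EB12, against 0.0726% of all tested IDs, and 0 lower, against 0.0436%. At an unadjusted limma p under 0.05 there were 2 higher and 5 lower, and these shares of 232 can be set against 3.53% and 8.62% of all tested IDs. This difference is fixed by the other 3 and the choice therefore touched it too, and a missed call does not show that levels were equal.

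The exceptions on the low side were BXY_0246700 and BXY_1596600, in which EB12 lay more than 0.5 below EC12. BXY_0246700 stood at 627, 693 and 790 FPKM in EC12, 407, 630 and 468 in EB12, 305, 315 and 318 in EC24, and 684, 675 and 649 in EB24. Its level rose from EB12 to EB24 while it fell from EC12 to EC24. BXY_1596600 stood at 334, 185 and 153 FPKM in EC12, 186, 86.8 and 144 in EB12, 69.8, 73.4 and 76.3 in EC24, and 180, 173 and 173 in EB24. In this gene replicate 1 was the highest library of both 12 h groups, the reverse of most of the other genes.

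In 231 of the 232 genes the 3 EC24 libraries were the lowest of all 12, an order found in 23.4% of the IDs in the level range. The exception was BXY_1292100, singled out after its values were seen. It stood at 14.5, 7.46 and 9.62 FPKM in EC24 and 13.9, 16.9 and 16.1 in EB12, so that EC24 replicate 1 lay above EB12 replicate 1.

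The choice was repeated without the 4 libraries of 1 replicate number, and the genes so chosen were read in those 4 libraries alone. The differences read there rest on libraries that took no part in that choice, although the limits were set with the whole data known and this reading was added after the data were seen. Replicate numbers were not used as pairs, so each reading sets 1 library of a group against 1 of another, with no test. At 12 h the deviations of EC12 and EB12 had a correlation of 0.34 for replicate 1, 0.15 for replicate 2 and -0.05 for replicate 3.

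Without the libraries numbered 1, 274 genes were chosen, and in the left-out libraries 269 of them were lower in EC24 than in both EC12 and EB24, as were 40.8% of the IDs in the level range. The counts were 231 of 232 without the libraries numbered 2, a set that shares 183 genes with the 232 of the full choice, against 41.9%, and 207 of 215 without those numbered 3, against 45.8%. The median change in EC was -0.71, -1.31 and -1.25 log2 units, and the median difference between the agents at 24 h was 0.75, 0.89 and 0.94. Over the level range these medians lay between -0.07 and -0.01 for the change in EC and between 0.09 and 0.18 at 24 h.

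Fewer of these genes met all 3 limits on the differences again. In the left-out libraries 63 of the 274 did so, against 1.78% of the IDs in the level range, 98 of the 232, against 2.56%, and 126 of the 215, against 3.41%. The median change in EB was -0.07, -0.43 and -0.21 log2 units, against 0.12, 0.07 and 0.12 over the level range. A fall of 0.5 or more in EB was read for 35 of the 274 genes, 100 of the 232 and 30 of the 215, which can be set against 14.3%, 19.6% and 12.9% of the IDs in the level range. With libraries rescaled by their median ratio, such a fall was read for 14 of 127 chosen genes, 87 of 158 and 28 of 129. The shares over the level range were then 19.5%, 29.9% and 21.4%. The median change in EB after that scaling was -0.14, -0.54 and -0.32, against -0.04, -0.12 and -0.08.

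Single EC12 libraries were also left out, and each was read against the EC24 mean, which had served in the choice. With EC12 replicate 1 left out, 261 genes were chosen, and the median gene stood 0.85 log2 units above the EC24 mean in that library, whereas the choice had been made on a median of 1.22. In that library 147 of the 261 genes stood at least 0.8 above EC24, against 12.9% of the IDs in the level range. The left-out EC12 replicates 2 and 3 stood 1.30 and 1.26 above EC24 at the median. At least 0.8 above were 200 of 210 and 187 of 227 genes, against 17.3% and 15.2% of the IDs in the level range. Over that range the medians of the left-out EC12 replicates 1, 2 and 3 were 0.11, -0.004 and 0.01.

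The spread at 12 h within these genes had a direction. The choice limited the size of that spread and did not name a library as low. It did use the EC12 and EB12 values, so this direction is a description and not independent of the choice. EC12 replicate 1 was below the mean of the other EC12 libraries in 211 of the 232 genes, by a median of 0.42 log2 units (-0.424), against 53.5% of the IDs in the level range and a median of -0.04. EB12 replicate 1 was below its fellow replicates in 169 genes, at a median of -0.20, against 51.4% and -0.01. EB12 replicate 2 and EC12 replicates 2 and 3 lay above their fellows at the median, by 0.19, 0.17 and 0.28. EC12 replicate 1 was thus displaced in the direction in which the whole of EC24 lay. Its median of 0.91 above EC24 is a description, since that library and EC24 both served in the choice.

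Related IDs shared the low EC12 replicate 1, while the place of EC12 replicate 3 differed. EC12 replicate 1 was below its fellows in 1150 of the 1392 IDs that fell in EC (82.6%), a set that holds the 232. A further set was the 170 IDs that fell in both series with EB24 at least 0.7 above EC24, which are not all IDs that fell in both. EC12 replicate 1 was below in 119 of these 170 (70%), against 54.4% of the 1994 that changed little in EC. In the same 170 IDs, EC12 replicate 1 was 0.17 below its fellows (-0.174) and replicate 3 was 0.34 below (-0.340), whereas replicate 3 was 0.28 above in the 232 genes. In all 1392 IDs that fell in EC, replicates 1 and 3 lay at -0.21 and -0.10 and replicate 2 at 0.24. In 1994 IDs that changed by less than 0.2 from EC12 to EC24, the 3 EC12 libraries lay at -0.03, -0.08 and 0.03. The part of this axis in the fall was not tested. Without EC12 replicate 1 the median change of the 232 genes in EC was -1.25.

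**Figure D4:**
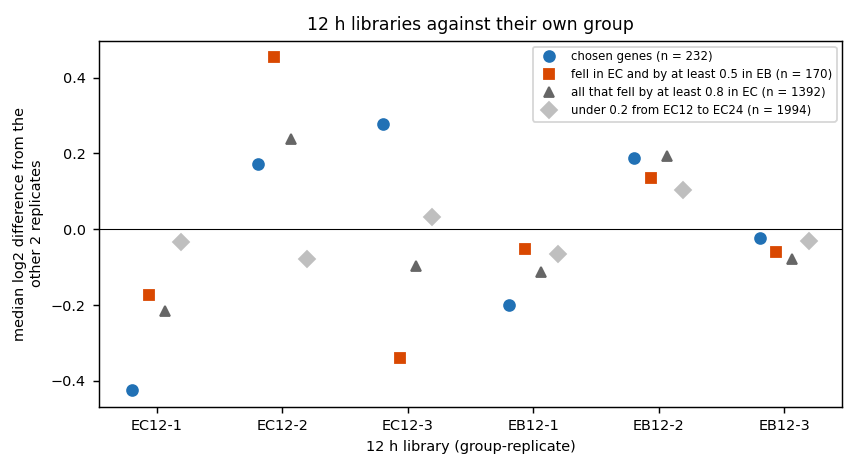
Median log2 difference of each 12 h library from the mean of the other 2 replicates of its group, for the 232 chosen genes, for the 170 IDs that fell in both series, for all 1392 IDs that fell in EC and for 1994 IDs that changed by less than 0.2 there. EC12 replicate 1 lies at -0.424 for the chosen genes, and EC12 replicate 3 lies above 0 for them and below 0 for the 170.

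The 24 h libraries were tighter. Replicates of the median gene had an SD of 0.06 log2 units in EB24 and 0.11 in EC24 over the 232 genes, and 0.08 and 0.10 over the level range. In the class averaging 50 to 200 FPKM, where the levels are more alike, the medians were 0.056 and 0.093 over 97 chosen genes and 0.059 and 0.079 over 3121 IDs. At 12 h the median SD was 0.30 in EC12 and 0.21 in EB12 over the chosen genes, against 0.24 and 0.25 over the level range. The choice limited the 12 h spread to under 0.6 and the level range did not, so the 12 h values are not on equal terms. The limit of 0.7 on the difference at 24 h is itself far above these SDs, so that the choice fixed a difference larger than the spread between the 24 h replicates in the median gene.

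The chosen genes were not evenly spread over levels of abundance. They made up 1.07% of the 3540 IDs with a mean FPKM of 5 to 20, 2.17% of 3046 at 20 to 50, 3.11% of 3121 at 50 to 200 and 4.95% of 626 at 200 to 800. The median mean FPKM was 56.5 over the 232 genes and 33.3 over the level range. The 31 genes at 200 to 800 also had the larger differences, with medians of -1.43 over time in EC and 1.28 between the agents at 24 h, against -1.08 and 0.82 for the 38 genes at 5 to 20. The constant added before taking logs makes differences of low genes smaller.

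Consecutive IDs were both chosen in 6 cases. A total of 158 chosen genes had a next BXY ID that was itself in the level range, and 3.80% of those next IDs were chosen, against 2.25% of all IDs in the range. The pair with the highest levels was BXY_1524200 and BXY_1524300, with mean FPKM of 438 and 210 and EC changes of -1.57 and -1.87 log2 units, and the pair with the next steepest falls was BXY_0910000 and BXY_0910100, at -1.56 and -1.52. Both pairs were named after their values were seen. No annotation was used here that gives genome positions or sequences, so that neighbouring genes and near-identical copies that share reads cannot be told apart.

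Which genes were chosen depended on how the libraries were scaled and on the exact limits. Limits tightened by 0.1 log2 units left 122 of the 232, and limits widened by 0.1 added others to a total of 423. Median ratio scaling left 123 of the 232 and added 5, and quantile normalization left 126 and added 12. Of the 109 lost under median ratio scaling, 81 then fell by 0.5 or more in EB, 61 had a 24 h difference under 0.7, and 33 did both. Under both scalings EC24 lay below EC12 by at least 0.71 (-0.708) and below EB24 by at least 0.57 in every one of the 232. The choice had already required both of these directions by a set margin, so their persistence is a description and no separate evidence. The median change in EB moved from -0.23 to -0.41 under median ratio scaling and to -0.33 under quantile normalization, while the median of all tested IDs moved from 0.15 to -0.02 under both.

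**Figure D5:**
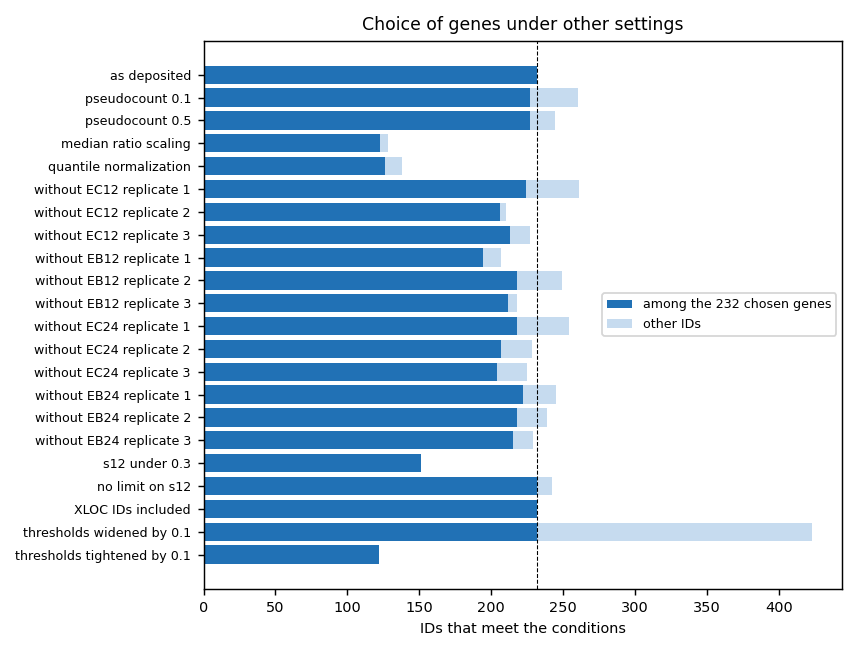
Number of IDs that meet the conditions under each setting, split into those among the 232 chosen genes (dark) and other IDs (light); the dashed line marks 232. Both rescalings keep fewer of the 232 (123 and 126) than any choice with 1 library left out (194 to 224).

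A total of 101 genes met the conditions with all 3 scalings, and 114 met them with every library left out in turn. Both rescalings, both other pseudocounts and every left-out library, 16 settings in all, kept 82 genes. Their median changes were -1.17 in EC and -0.11 in EB, and the median difference at 24 h was 1.09. Passing the same limits in every setting favours genes that lie far inside them. These medians are therefore a description of that further choice and no separate evidence. Of the 11 genes named above by the fixed rule, BXY_1524300 and BXY_1425400 were kept throughout. BXY_0323200 was kept in 9 settings and BXY_0805500 in 10.

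The most abundant of the 82 was BXY_0913200, named after this count was made. It stood at 490, 747 and 838 FPKM in EC12, 669, 621 and 758 in EB12, 286, 287 and 292 in EC24, and 781, 755 and 767 in EB24. Its EB24 libraries stood within the EC12 range and inside or just above the EB12 range, and its EC24 libraries stood far below. BXY_0566600 stood at 453, 607 and 701 FPKM in EC12, 496, 590 and 577 in EB12, 179, 180 and 175 in EC24, and 461, 476 and 475 in EB24, a log2 difference of 1.40 between the agents at 24 h.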

How the data were processed

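Messenger RNA of 12 libraries, 3 per group, was analysed. The authors deposited FPKM values with 2 decimals for 18036 IDs (17704 BXY, 332 XLOC). Per the submitters' processing notes TopHat2 2.1.1 was used. The build, annotation, counting tool and strand handling were not given in the sources used here. Each value column matched exactly 1 library title, and 0 pairs of libraries were identical. The conditions were applied to log2(FPKM + 1). limma 3.58.1 (R 4.3.3) was fitted to the 13768 IDs that reached FPKM 1 in 3 or more libraries, with 1 mean per group, a trended prior variance and two-sided Benjamini-Hochberg adjusted p over all of them at 0.05, and was tested on simulated data. FPKM is scaled within a library, so a change in abundant genes shifts the others. The genes, limits and lists were chosen with earlier results of these data known. Named genes were the 3 lowest in EC24 minus EC12, the 3 highest in EB24 minus EC24, the 3 most abundant, the 2 most abundant in each class of EB12 minus EC12 (classes divided at -0.5 and 0.5), and the genes nearest each limit. Lists of gene functions could not be filled (0 filled), since IDs are not paired with names. Replicate numbers were not used as pairs. Alternatives were other pseudocounts, filters, scalings, limits and weights, the compared groups alone, a replicate block and each library left out.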

Additional observations from a re-analysis of the deposited data

Results flagged for a closer look

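For 152 of the 232 genes, against 6.46% of all tested IDs with that sign, the difference between the agents was not the same at 12 h as at 24 h by the limma interaction test (Benjamini-Hochberg adjusted p under 0.05). The genes were chosen on differences that fix this one, so the count is no separate evidence.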

How the results depend on the processing

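The number of genes that met the conditions was 128 with libraries rescaled by their median ratio, 138 with quantile normalization, 151 with a 12 h spread under 0.3, 423 with all limits on differences widened by 0.1 and 122 with them tightened by 0.1, against 232. It was 207 to 261 with 1 library left out. For the 232 genes kept fixed, those called lower in EB24 than EB12 (29) numbered 87 after median ratio scaling, 76 after quantile normalization, 16 with no filter on low values, and 2 to 57 with 1 library left out, while the share of all tested IDs went from 13.1% to 21.2%, 21.8%, 9.06% and 8.56% to 14.5%. Those called higher (1) numbered 0 after either rescaling or with the compared groups fitted alone, 2 with no filter, and 0 to 2 with 1 library left out. The interaction count (152) was 55 after median ratio scaling and 44 to 188 with 1 library left out, where the share of all tested IDs went from 6.46% to 1.49% and to 0.848% to 13.1%, and 0 to 1 gene was called between EB12 and EC12. Calls lower in EC24 than EC12 stayed at 227 to 232 and calls higher in EB24 than EC24 at 184 to 229 with 1 library left out. The fit shared 1 spread per ID over all groups, so a library left out also changed calls of differences it was no part of. How far this made the shifts with 1 library left out was not tested, nor was the cause of the other shifts. Of 18 pairs of same-numbered libraries, 2 deviated together with a correlation over 0.1, both at 12 h between EC12 and EB12 (0.34 for replicate 1 and 0.15 for replicate 2, against -0.05 for replicate 3), so the numbers did not pair the libraries throughout, and 6 of 12 libraries were closest to their own number in the other agent. With the numbers as a replicate block, the counts were 232, 27, 227 and 144 for the falls in EC, the falls in EB, the differences at 24 h and the interaction. Rescaling of the sums, the 24 h spreads and the EC12 replicate 1 deviation, the reading in 4 left-out libraries, and the reading of left-out EC24 libraries with no limit on the 12 h spread were added after the data were seen. With no read counts, depth limits could not be set.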
